A study of Mus musculus with 4 samples.

Results

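Bach2, Bcl2, Igfbp4, Gpr83 and Jun are genes of resting regulatory T cells (Tregs), T cell regulation and cell survival, and their 5 rows were taken by gene name from a deposited table of 282 genes. Tregs were sorted by the submitters from spleen and lymph nodes of Foxp3RFP-Cre.RosaYFPMll1fl/fl male mice aged 6 to 8 weeks. All cells therefore came from mice with floxed Mll1, a Cre expressed from Foxp3 and a Cre-dependent YFP reporter at Rosa. Of the 4 libraries, 2 were RFP+YFP+ Tregs labelled MLL1KO and 2 were RFP+YFP- Tregs labelled WT, so the groups differed by whether the reporter was on, not by the alleles the animals carried. Each group had 1 library under mouse number 1 and 1 under mouse number 2, but it is not labelled whether such a number is 1 animal or a pool. The libraries are called YFP-positive and YFP-negative mouse 1 and mouse 2 here. The spread between the libraries of a group, largely borrowed from all 282 genes and not each gene's own, is all that the p-values measure.

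MLL1 is a histone H3 lysine 4 methyltransferase that acts at active promoters, and part of the protein binds unmethylated CpG DNA. Resting Tregs recirculate through lymphoid organs, and on activation they turn on a separate effector programme of transcription factors, inhibitory receptors and homing receptors. BACH2 is a transcriptional repressor that restrains effector differentiation of T cells. BCL2 blocks the mitochondrial route of cell death. IGFBP4 binds insulin-like growth factors outside the cell, GPR83 is a G protein-coupled receptor long used as a Treg marker, and JUN is a subunit of the AP-1 transcription factor.

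The table was not a background. Each of its 282 genes had passed the authors' own test on these 4 libraries, in which a gene needed an adjusted p below 0.05 and a log2 fold change beyond 1 in either direction. The listed genes were 1.98% of the 14239 genes whose testing the deposited p-values imply, and those higher in YFP-positive Tregs were 0.604%. The values were normalized counts, that is, reads per gene divided by a size factor per library. Neither Kmt2a, the mouse gene for MLL1, nor Foxp3 was analysed here, which leaves the deletion unchecked. Of 8 Treg markers, and of 17 Treg identity genes, Gpr83 was the 1 with a row. In bulk libraries a change in the number of cells of a type cannot be told apart from a change in RNA per cell.

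All 5 genes were higher in YFP-positive Tregs, in both mouse numbers, by 2.40-fold to 3.06-fold in the group means. In these means the ratio was largest for Igfbp4 (3.06) and Gpr83 (3.04) and smallest for Bach2. The order changed with the mouse number, so the 5 genes are not ordered by difference. On the log2 scale the smallest difference was that of Igfbp4 in mouse 1 (1.50) and that of Bcl2 in mouse 2 (0.83). The promoters of Bcl2, Jun and Igfbp4 are shown to place the genes in sequence, since MLL1 binds CpG DNA and the Jun promoter holds an AP-1-like element. Each is the 250 bases before the RefSeq start in build GRCm38.p6, read 5′ to 3′ on the gene's strand. Bcl2 lies at chr1:106714291-106714540 (minus strand), and its CpG pairs are in capitals. Jun lies at chr4:95052223-95052472 (minus strand), with an AP-1-like element in capitals. Igfbp4 lies at chr11:99040994-99041243 (plus strand), with a TATA element in capitals.
Bcl2: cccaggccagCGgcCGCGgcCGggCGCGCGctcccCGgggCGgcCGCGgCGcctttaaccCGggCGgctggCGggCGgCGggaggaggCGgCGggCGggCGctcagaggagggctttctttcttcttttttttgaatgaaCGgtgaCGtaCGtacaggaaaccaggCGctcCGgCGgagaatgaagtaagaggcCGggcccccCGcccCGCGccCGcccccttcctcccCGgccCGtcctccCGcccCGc
Jun: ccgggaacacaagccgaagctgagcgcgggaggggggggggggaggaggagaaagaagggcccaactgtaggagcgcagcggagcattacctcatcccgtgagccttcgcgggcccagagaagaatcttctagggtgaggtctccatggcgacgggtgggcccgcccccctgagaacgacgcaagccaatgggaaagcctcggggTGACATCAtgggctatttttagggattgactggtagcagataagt
Igfbp4: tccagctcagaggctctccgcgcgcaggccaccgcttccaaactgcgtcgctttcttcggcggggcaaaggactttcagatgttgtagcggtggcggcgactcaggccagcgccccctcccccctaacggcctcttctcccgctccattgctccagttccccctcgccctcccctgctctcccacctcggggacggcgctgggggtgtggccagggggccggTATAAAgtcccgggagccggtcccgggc

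The Bcl2 window held 36 CpG pairs, more than 97.4% of 32851 RefSeq windows of the same length, whose median was 6. Among listed genes with a matched window, the median was 9 for 52 of the 86 higher genes. It was also 9 for 140 of the 196 lower genes. Igfbp4 held 22, Gpr83 held 18, Jun held 15 and Bach2 held 7. The Bach2 window (chr4:32417185-32417434, plus strand) precedes a RefSeq start 178631 bases inside the deposited gene model, so it is not the start of that model. The Jun window held TGACATCA with its first base 45 bases before the start, and 2.93% of all windows held this element or its reverse complement, TGATGTCA. TATAAA began 28 bases before the Igfbp4 start and was present on either strand in 12.4% of windows. Neither the AP-1 consensus TGANTCA (6.75% of windows) nor the cyclic AMP element TGACGTCA (1.55%) was found in the windows of the 5 genes, on either strand. GGGCGG, the GC box, was found 7 times on both strands together before Bcl2 and 1 time before Jun, against 32.7% of windows with at least 1. These matches describe letters only.

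Bach2 (ENSMUSG00000040270, mm10 chromosome 4, 32238804 to 32586108, plus strand) encodes the repressor of effector fate. Its normalized counts were 758 and 601 in YFP-positive mice 1 and 2, and 249 and 319 in YFP-negative mice 1 and 2. Both YFP-positive libraries stood above both YFP-negative ones. The groups were apart in this way, in either direction, for all 282 selected genes. The group means were 680 ± 111 and 284 ± 49.2 (SD, n = 2 each). By limma on log2(normalized count + 1), with Benjamini-Hochberg adjustment over the 282 genes, Bach2 was higher by 1.26 ± 0.35 (SE) on the log2 scale, adjusted p = 0.000798. It was the least abundant of the 5 genes, and its smallest library rested on 254 reads, inferred from the deposited values. Within mouse 1 the ratio was 3.04, with an exact 95% binomial interval of 2.64 to 3.53, and within mouse 2 it was 1.89, with an interval of 1.65 to 2.16. These intervals cover counting error only, and those of the mice did not overlap.

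Jun (ENSMUSG00000052684, chromosome 4, 95049034 to 95052222, minus strand), a single-exon gene, encodes an AP-1 subunit that is induced within minutes by many stimuli. Its normalized counts were 8934 and 6904 in YFP-positive mice 1 and 2, against 2673 and 2824 in YFP-negative mice 1 and 2. The YFP-negative libraries lay close together and well below both YFP-positive libraries. The means were 7919 ± 1436 and 2748 ± 107 (SD, n = 2 each). Limma put the difference at 1.52 ± 0.39 on the log2 scale, adjusted p = 0.000415. Of 21 immediate early and cell handling genes, Jun was the 1 with a row in the table, and the other 20 have no value here.

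Bcl2 (ENSMUSG00000057329, chromosome 1, 106538178 to 106714274, minus strand) was counted at 5805 and 5029 in YFP-positive mice 1 and 2, and at 1379 and 2820 in YFP-negative mice 1 and 2. The YFP-positive libraries were close to each other, whereas YFP-negative mouse 2 was 2.04 times as high as YFP-negative mouse 1 (exact 95% binomial interval 1.92 to 2.18, counting error only). A difference between the YFP-negative libraries at least this large on the log2 scale, in either direction, was seen in 28 of the 282 genes. The means were 5417 ± 549 and 2100 ± 1019 (SD, n = 2 each). The limma log2 fold change was 1.45 ± 0.38, adjusted p = 0.00051. The ratio of YFP-positive to YFP-negative was 4.21 in mouse 1 and 1.78 in mouse 2. Leaving out YFP-negative mouse 1 lowered the log2 fold change to 0.94 (limma adjusted p = 0.0455). Leaving out YFP-positive mouse 1 gave 1.35, which no longer passed (limma adjusted p = 0.0518). Over all other alternatives Bcl2 had limma adjusted p-values of 0.000215 to 0.0455.

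Igfbp4 (ENSMUSG00000017493, chromosome 11, 99041244 to 99054392, plus strand) was counted at 5011 and 3165 in YFP-positive mice 1 and 2, and at 1776 and 893 in YFP-negative mice 1 and 2. Mouse 1 was the higher library in both groups, by 1.58-fold in YFP-positive and 1.99-fold in YFP-negative Tregs, so the ratios within a mouse were closer, at 2.82 and 3.55. The means were 4088 ± 1306 and 1335 ± 625 (SD, n = 2 each). The limma log2 fold change was 1.66 ± 0.37, adjusted p = 9.31e-05. Leaving out YFP-positive mouse 1 gave 1.33, which missed the threshold (limma adjusted p = 0.0533), whereas all other alternatives gave 1.83e-05 to 0.0302.

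Gpr83 (ENSMUSG00000031932, chromosome 9, 14860210 to 14870789, plus strand) was counted at 5443 and 4259 in YFP-positive mice 1 and 2, and at 1752 and 1442 in YFP-negative mice 1 and 2. Its within-mouse ratios, 3.11 and 2.95, were the closest pair among the 5 genes, and their counting intervals of 2.94 to 3.28 and 2.79 to 3.13 overlapped. The means were 4851 ± 837 and 1597 ± 219 (SD, n = 2 each). By limma Gpr83 was higher by 1.60 ± 0.36 on the log2 scale, adjusted p = 0.000112.

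**Figure D1:**
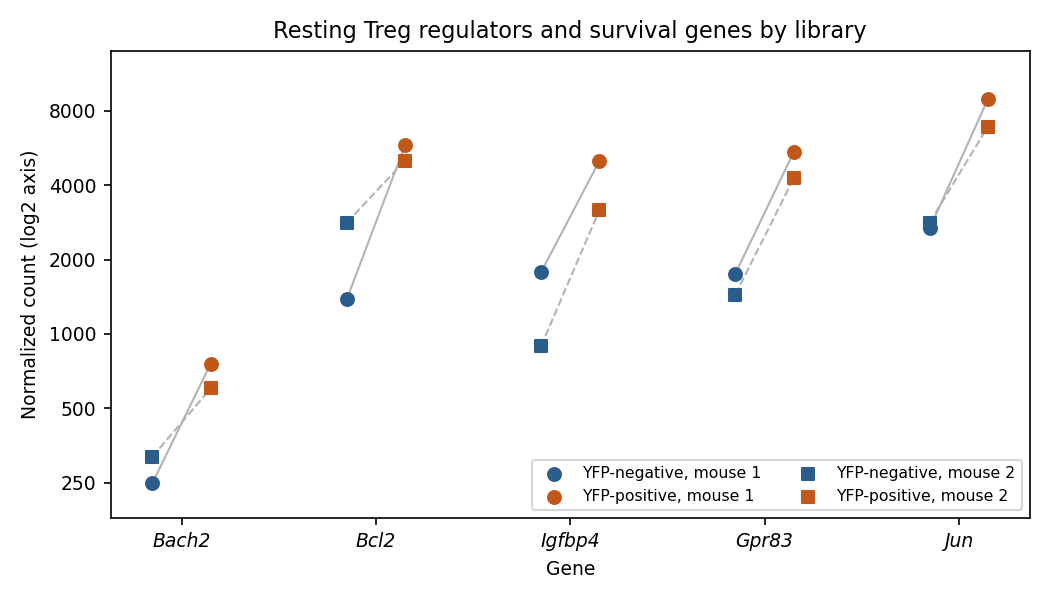
Normalized counts (log2 axis) of the 5 genes in each of the 4 libraries, with YFP-negative in blue, YFP-positive in orange, circles for mouse 1, squares for mouse 2 and lines joining the libraries of a mouse number. Each gene's orange points lie above its blue points, and the blue points of Bcl2 (1379 and 2820) and Igfbp4 (1776 and 893) are spread in opposite directions by mouse. The groups did not overlap in any of the 282 selected genes.

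Members passing the limma threshold numbered 5 of 5, against a background of 100% of the 282 listed genes in either direction and 30.5% in the higher direction. Because the rows had been chosen for this same contrast, this count carries no independent support. For any single gene, an exact permutation test of 2 against 2 libraries cannot give a two-sided p below 0.333, and each of the 5 genes gave that value. The limma p-values are smaller since limma borrows a spread from all 282 selected genes. When adjusted over the 14239 implied tests, limma gave adjusted p-values from 0.0047 (Igfbp4) to 0.0403 (Bach2). The unlisted genes have no limma p-value, and this adjustment takes all of them to be larger. The listed rows had also passed the authors' own adjustment already, so this is not an independent check.

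Among the 86 higher genes, these 5 combined high levels with moderate changes. By mean normalized count Jun, Bcl2, Gpr83 and Igfbp4 ranked 3, 5, 8 and 9 of the 86, and Bach2 ranked 34. By the log2 fold change of the authors' deposited table they ranked 51 (Igfbp4), 53 (Gpr83), 57 (Jun), 68 (Bcl2) and 73 (Bach2). The median limma log2 fold change was 1.52 over the 5 genes, 1.79 over the 86 higher genes and -1.51 over all 282. The lowest YFP-positive library was more than 2 times the highest YFP-negative library for Gpr83 (2.43) and Jun (2.45), and 66 of the 86 higher genes met the same mark. It was 1.89 times as high for Bach2 and 1.78 times for both Bcl2 and Igfbp4.

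**Figure D2:**
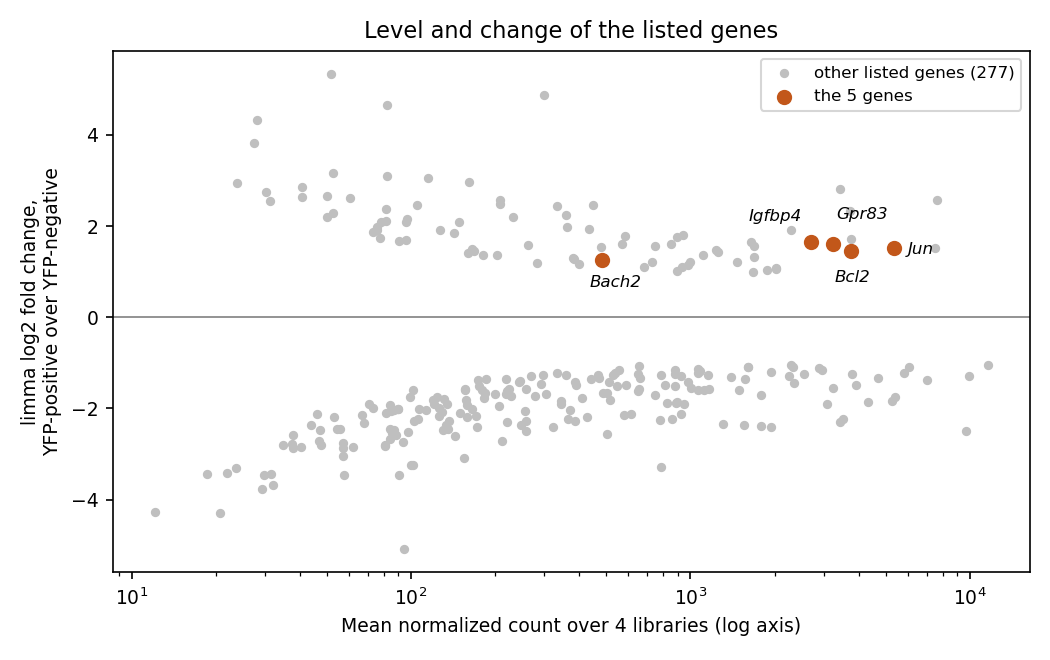
Limma log2 fold change (YFP-positive over YFP-negative) against the mean normalized count over the 4 libraries (log axis) for the 282 listed genes, with the 5 genes in orange and the other 277 in grey. The 5 genes lie between 1.26 and 1.66, and all but Bach2 are at the right, among the abundant genes.

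To compare levels between genes, normalized counts were divided by the deposited gene length in kilobases. In YFP-positive Tregs Jun led at 2483 per kilobase, followed by Gpr83 at 952, Igfbp4 at 926, Bcl2 at 592 and Bach2 at 68.4. Gpr83 (836 to 1068) and Igfbp4 (717 to 1135) overlapped between libraries and are not ordered. In YFP-negative Tregs the mean levels per kilobase were 862 for Jun, 313 for Gpr83, 302 for Igfbp4, 229 for Bcl2 and 28.5 for Bach2. There the ranges of Igfbp4 (202 to 402), Gpr83 (283 to 344) and Bcl2 (151 to 308) all overlapped, and these 3 are not ordered. Jun was thus the most and Bach2 the least abundant of the 5 per length in each of the 4 libraries.

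The difference between YFP-positive and YFP-negative Tregs varied between mouse numbers. On the log2 scale it was 2.07 in mouse 1 and 0.83 in mouse 2 for Bcl2, 1.60 and 0.91 for Bach2, and 1.74 and 1.29 for Jun. For Gpr83 it was 1.63 and 1.56. Igfbp4 was the 1 gene with the larger difference in mouse 2, at 1.50 in mouse 1 and 1.82 in mouse 2. The gap between mice was 1.24 for Bcl2, a size that 7 of the 86 higher genes reached, Bcl2 included, against a median absolute gap of 0.37. With 1 library per group in each mouse, these gaps have no replicate check.

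**Figure D3:**
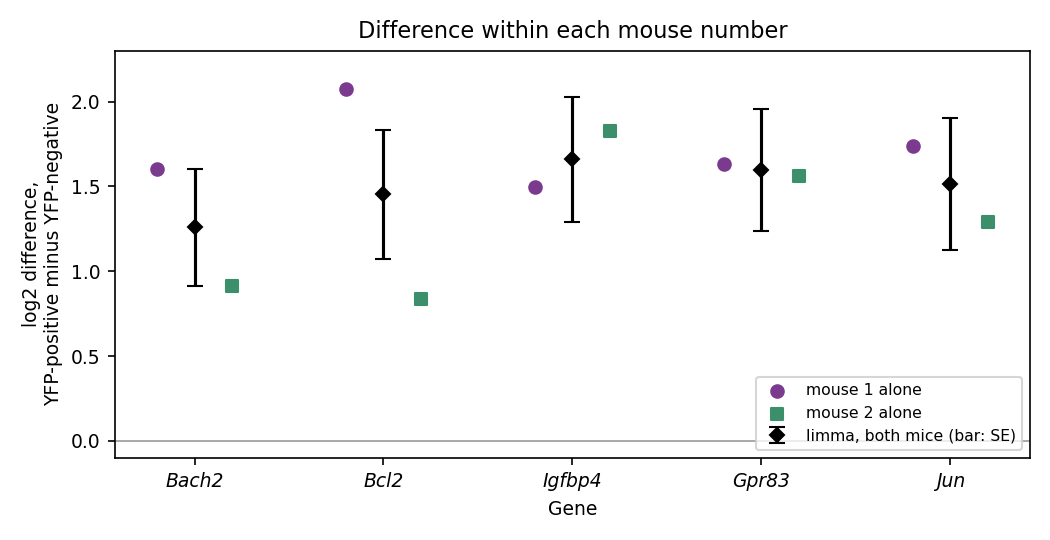
Difference in log2(normalized count + 1), YFP-positive minus YFP-negative, within mouse 1 (circles) and mouse 2 (squares), beside the limma estimate over both mice with its SE (diamonds and bars). Bcl2 has the widest gap, 2.07 against 0.83, and Gpr83 the narrowest, 1.63 against 1.56.

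In YFP-positive Tregs mouse 1 was the higher library for 5 of the 5 genes, as it was for 52 of the 86 higher genes (60.5%). In YFP-negative Tregs mouse 1 was the higher library for Igfbp4 and Gpr83 and the lower for Bcl2, Bach2 and Jun, and it was the higher for 45 of the 86 (52.3%). Igfbp4 and Bcl2 thus had their lowest YFP-negative values in different mice.

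**Figure D4:**
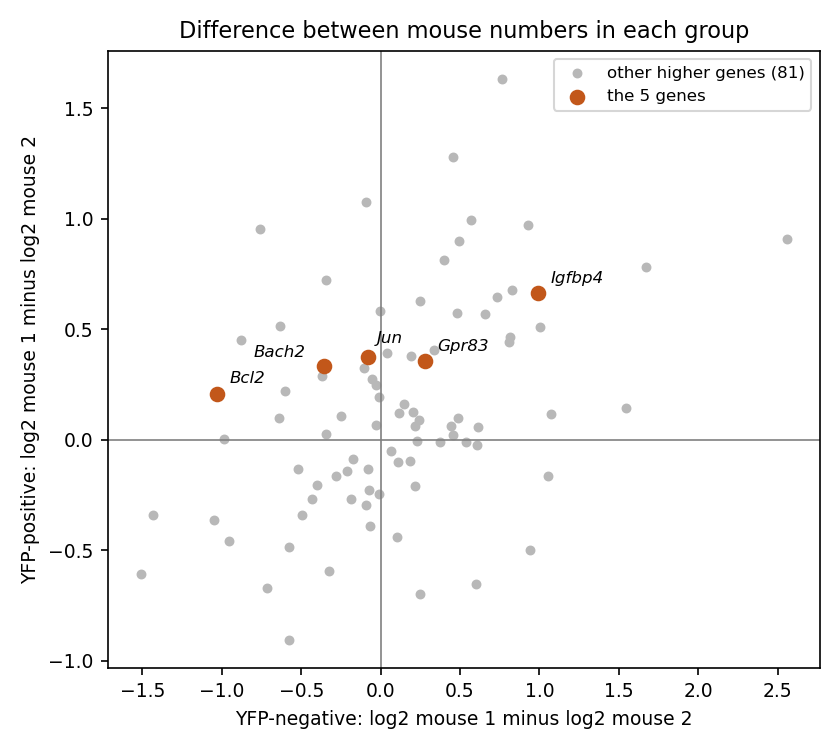
Difference between mouse 1 and mouse 2 in log2(normalized count + 1), within YFP-negative (horizontal) and YFP-positive (vertical) Tregs, for the 86 genes higher in YFP-positive Tregs, with the 5 genes in orange and the other 81 in grey. The 5 genes share a positive vertical value, and they spread horizontally from Bcl2 at the left to Igfbp4 at the right.

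Profiles over the 4 libraries, centred on each gene's own mean of log2(normalized count + 1), were compared by Euclidean distance among 217 other protein-coding genes with a mean of at least 50. Among the 5 genes themselves, Gpr83 and Jun were closest (distance 0.27) and Bcl2 and Igfbp4 farthest apart (1.48). The nearest genes to Jun were Mmp11 (0.11), Nedd4l (0.19) and Gbp10 (0.22). Those to Gpr83 were Ctsw (0.21), St8sia6 (0.25) and Jun (0.27). Bach2 was nearest to Pecam1 (0.18), Mmp11 (0.31) and Jun (0.32). Igfbp4 had Ecm1 (0.31), Gng12 (0.40) and Gsto1 (0.51) nearest, and Bcl2 had Capn3 (0.43), Fanci (0.52) and Bach2 (0.52). Ecm1 shared the ordering of Igfbp4, with 4411 and 2819 normalized counts in YFP-positive mice 1 and 2 and 1207 and 727 in YFP-negative mice 1 and 2. Capn3 shared that of Bcl2 in the YFP-negative libraries, at 544 and 782 in mice 1 and 2, and had 1727 and 1892 in the YFP-positive ones. Distances over 4 libraries are a description and have no test.

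Related genes were then read from the table. Of 19 resting and central Treg genes, 5 had a row and 5 were higher, where 30.5% of the 282 selected genes were higher. The median limma log2 fold change of the 5 was 1.66, the value of Igfbp4, against 1.79 for the 86 higher genes. Among these rows 3 belong to the genes reported here, whose direction was known, so only the other 2 add to them. Beside Igfbp4, Bcl2 and Bach2, the 5 rows were the Ly6C antigen genes Ly6c1 (2.82 ± 0.35) and Ly6c2 (4.86 ± 0.46). Igfbp4, Bcl2 and Bach2 thus had the smallest differences of the 5. Without YFP-positive mouse 1 the log2 fold change was 1.33 for Igfbp4 and 1.35 for Bcl2.

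Of 19 BCL2 family genes, 2 had a row, and they differed in opposite directions. Bcl2 was higher, and Bcl2a1d, which encodes the related anti-apoptotic protein A1, was lower by limma. Bcl2a1d was counted at 689 and 803 in YFP-positive mice 1 and 2 and at 2268 and 2227 in YFP-negative mice 1 and 2, a log2 fold change of -1.59 ± 0.33. Matches of at least 95% identity to transcripts of other genes, Bcl2a1a the closest, covered 94.9% of the Bcl2a1d transcript, so its reads cannot be assigned to this copy with certainty. The other 17 members, among them the genes for MCL1, BCL-XL and BIM, have no value here.

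Of 29 basic leucine zipper (bZIP) factor genes of the JUN, FOS, ATF, BATF, BACH and MAF families, 4 had a row. Jun and Bach2 were higher by limma, and Batf and Maf were lower. BATF is the AP-1 partner of JUN proteins that acts with IRF4 in effector T cells, and c-MAF drives cytokine genes of helper T cells. Batf was counted at 3218 and 3774 in YFP-positive mice 1 and 2 and at 7716 and 8523 in YFP-negative mice 1 and 2 (limma log2 fold change -1.22 ± 0.40), and it did not pass when adjusted over the 14239 implied tests (limma adjusted p = 0.177). Maf was counted at 462 and 643 against 1401 and 1963 in the same order (-1.60 ± 0.34). For both, mouse 2 was the higher library in each group, and the groups did not overlap, as for all 282 selected genes.

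Of 14 effector T cell transcription regulator genes, 9 had a row and 9 were lower, where 69.5% of the 282 selected genes were lower. Their median limma log2 fold change was -1.60, against -1.90 for the 196 lower genes and -1.51 for all 282. Id2, which encodes an inhibitor of E proteins, had -1.83 ± 0.39, and the nuclear receptor gene Rora had -1.90 ± 0.39. The T helper type 2 factor gene Gata3 had -1.09 ± 0.35, and Ahr, which encodes the aryl hydrocarbon receptor, had -1.48 ± 0.36. Prdm1, which encodes Blimp-1 and is a known target of BACH2 repression, was chosen after its values were seen and had -1.84 ± 0.37. It was counted at 111 and 198 in YFP-positive mice 1 and 2 and at 512 and 556 in YFP-negative mice 1 and 2. Leaving out YFP-positive mouse 2 gave a log2 fold change of -1.46 for Rora. Leaving out YFP-negative mouse 1 gave -1.30 for Tbx21, which had -1.60 over all 4 libraries. Adjusted over the 14239 implied tests 7 of the 9 passed, beside 169 of the 196 lower genes. Batf and Gata3 did not pass (limma adjusted p = 0.154 for Gata3). Of 24 activated and effector Treg genes, 15 had a row and 15 were lower, against the same 69.5%, with a median log2 fold change of -1.84. The most abundant were Icos (-1.29 ± 0.44), Penk (-2.49 ± 0.42), Tnfrsf9 (-1.37 ± 0.41), Tnfrsf1b (-1.09 ± 0.40), Batf and Cxcr3 (-2.23 ± 0.37). A block for the mouse left 13 of the 15 past the limma threshold, without Icos and Tnfrsf1b, beside 193 of the 196 lower genes. Adjustment over the implied tests left 11, beside the same 169 of the 196. Those not passing were Batf, Icos (limma adjusted p = 0.235), Tnfrsf9 (0.089) and Tnfrsf1b (0.469).

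Of 17 insulin-like growth factor axis genes, Igfbp4 and Igf2r had a row and both were higher, where 30.5% of the 282 selected genes were higher. Since Igfbp4 is among the genes reported here, only Igf2r adds to it. Igf2r encodes the receptor that clears IGF2 and carries lysosomal enzymes. It was counted at 2261 and 2725 in YFP-positive mice 1 and 2 and at 681 and 918 in YFP-negative mice 1 and 2, a log2 fold change of 1.65 ± 0.34. Its mouse 2 library was the higher one in each group, opposite to Igfbp4.

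**Figure D5:**
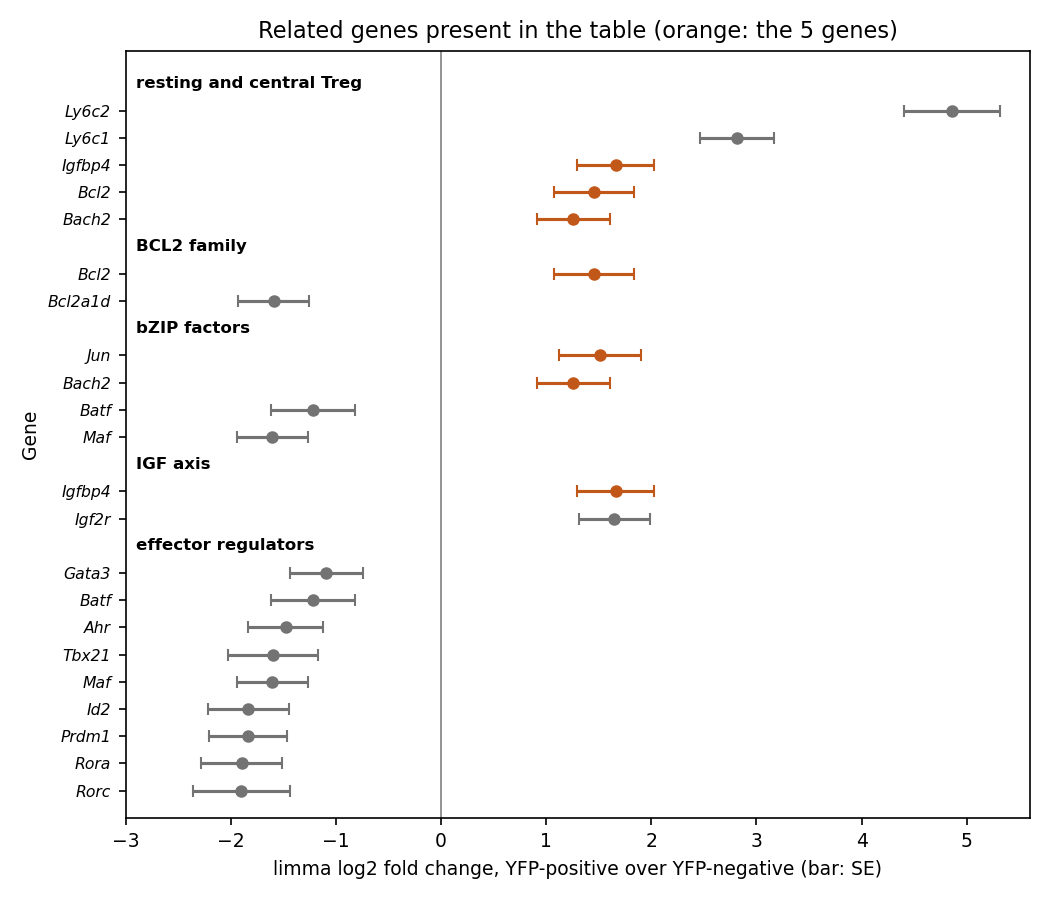
Limma log2 fold change with SE for the members of 5 gene lists that had a row in the table, with Bach2, Bcl2, Igfbp4 and Jun in orange and the other genes in grey. The resting Treg and insulin-like growth factor genes lie right of 0, the effector regulators left of 0, and the BCL2 family and bZIP genes lie on both sides.

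Markers of other cells that had a row differed in both directions. Of 11 naive conventional CD4 T cell markers, 4 had a row. Against a share of 30.5% over the 282 selected genes, 3 of the 4 were higher (Igfbp4, Bcl2 and Treml2), and Cd40lg was lower. The sum of these 4 was 9449 to 12134 in YFP-positive and 4231 to 5052 in YFP-negative Tregs, and most of it was Igfbp4 and Bcl2. The sum of Treml2 and Cd40lg alone was 1254 to 1318 in YFP-positive and 1075 to 1339 in YFP-negative Tregs, ranges that overlapped. In this sum the opposite differences of the 2 genes offset each other, so each is given separately. Treml2 was counted at 1009 and 807 in YFP-positive mice 1 and 2 against 253 and 272 in YFP-negative mice 1 and 2. Cd40lg was counted at 309 and 447 against 823 and 1067 in the same order. B cells also express Bach2 and Bcl2, and of 10 B cell markers Igkc had a row. It was lower, at 249 and 280 in YFP-positive mice 1 and 2 against 1503 and 1072 in YFP-negative mice 1 and 2. This 1 marker does not give the level of B cells. Gzma, on the lists of 6 CD8 T cell and 6 natural killer cell markers, was lower, and Pecam1, of 8 stromal and endothelial markers, was higher at 1340 to 1443 against 552 to 658. Of 10 erythroid and platelet markers, Gata1 was higher and Car2 lower. The lists of plasma cells, monocytes and macrophages, dendritic cells and granulocytes had 0 rows, and markers without a row, the defining ones included, have no value here. The sort purity was given as 95% for all 4 libraries. The part of other cells in the results was not tested.

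Overlapping annotation bears on 3 of the genes. In GENCODE M21, whose exon lengths equal the deposited gene lengths for all 5 genes, antisense transcripts share 7.28% of the exon bases of Jun (Junos), 6.09% of those of Bcl2 (D630008O14Rik) and 5.40% of those of Bach2 (Bach2os). The strand setting of the counting is not given in the sources used here, so reads from these stretches cannot be told apart. Igfbp4 and Gpr83 overlapped no other gene. Matches to transcripts of other genes covered 6.45% of the longest Igfbp4 transcript, 1.76% of that of Bach2 and 0% of those of Bcl2, Gpr83 and Jun.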

How the data were processed

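RNA of 4 Treg libraries was sequenced. The submitters' processing notes name mm10, featureCounts 1.5.0-p3, HISAT2 2.0.5, DESeq2 1.16.1 and StringTie 1.3.3b, and the design text names DEGSeq 1.16.1. The deposited signal values are reads per gene after scaling by the authors with 1 size factor for each library. The deposited log2 fold changes are YFP-positive over YFP-negative, and the deposited p-values and adjusted p-values come from the authors' test. Deposited values were whole multiples of 1 step per library, within 0.001 reads, for 100% of 282 genes, which gave size factors of 0.943 to 1.11 and 196337 to 329350 reads over the listed genes. These sums are not the libraries' depth. Only 13 to 40 values per library were at or below 20 reads, too few to check the step closely, so no count model was run.

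Limma 3.58.1 in R 4.3.3 was fitted to log2(value + 1) for all 282 genes, with a variance trend, no block and Benjamini-Hochberg adjustment. The code was first run on simulated counts of genes not selected for a difference, which gives no error rate for these rows. In the fit itself the variance was estimated from selected genes. As a check of the pairing by mouse number, each mouse 1 library was centred on its group, and the resulting values of both groups had Pearson's r = 0.395 and Spearman's rho = 0.411 over the 282 genes, which are not independent replicates. Exact tests used SciPy 1.17.1. Transcripts were matched with BLAST+ 2.17.0 (identity of at least 95% over at least 50 bases). Promoters came from RefSeq, build GRCm38.p6, and matched 5 of 5 genes by symbol. The 5 genes are always named, together with the 3 nearest profiles of each and up to 6 listed members of each gene list, by level. 1 gene is not reported here and was left out of the lists and their counts. The members, the lists and the tests were chosen with earlier results of these data known. Alternatives were another pseudocount, a filter, a mouse block, no trend, adjustment over the implied tests and leaving out each library.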

Additional observations from a re-analysis of the deposited data

How the results depend on the processing

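None of the alternatives reversed any of the 5 genes, a direction fixed by the selection of the rows. All 5 passed the limma threshold with a pseudocount of 0.1, with a mean of at least 50 and without a variance trend. They also passed when adjusted over 14239 tests, with the unlisted genes taken to have larger p-values. With the mouse number as a replicate block, a pairing that assumes a number marks the same source, all 5 also passed (limma adjusted p = 0.0175 for Bcl2, the highest of the 5), as did 279 of the 282 listed genes. Leaving out each library in turn, with the remaining single library taken to vary as the other group does, 3 to 5 of the genes passed. The 3 came without YFP-positive mouse 1, where Bcl2 and Igfbp4 missed the threshold. Over these fits the log2 fold change ran from 0.94 to 1.97 for Bcl2, from 1.16 to 2.16 for Igfbp4, from 1.08 to 1.44 for Bach2, from 1.42 to 1.78 for Gpr83 and from 1.33 to 1.70 for Jun. Within a mouse number, a value with no test, Bcl2 moved by more than its SE, to 2.07 in mouse 1 and 0.83 in mouse 2. Of the 282 listed genes, 236 passed when adjusted over the implied tests, and all passed with a pseudocount of 0.1 or without a variance trend. With a mean of at least 50, all 256 tested genes passed. EdgeR, DESeq2 and FPKM alternatives were not run, since the table holds scaled values of selected genes and the inferred reads could not be checked closely. The binomial intervals rest on the same inferred reads.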
